A study of Homo sapiens with 6 samples.

Results

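The 45 genes described here build or regulate the intermediate filaments, desmosomes and cornified envelope of squamous epithelium, and they were taken by gene symbol from the 60664 genes of the count table. They comprised 18 keratins, 13 desmosome genes, 12 cornified envelope genes and 2 regulators of squamous cells. RNA-seq was performed in SiHa PR cells, the parental cells of an established human cervical squamous carcinoma line, in 3 control samples (SiHa PR) and 3 samples that overexpressed P4HA3 (SiHa PR P4HA3). P4HA3 is a catalytic subunit of collagen prolyl hydroxylase, and the methods describe its cDNA in a pCDH expression vector delivered by lentivirus. The control samples are named only SiHa PR, whereas the paper compares P4HA3 overexpression with empty vector, and neither source says whether the cells were clones or whether the 3 samples of a group were separate cultures, so the p-values below measure only the spread between these samples. No time point or other treatment is named.

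Keratins are the intermediate filament proteins of epithelial cells and assemble only as pairs of a type I with a type II chain. KRT8 with KRT18 is the pair of simple epithelia, KRT5 with KRT14 marks the basal layer of squamous epithelium, KRT1 with KRT10 and KRT4 with KRT13 replace them in the layers above, and KRT6, KRT16 and KRT17 are induced on wounding and in many squamous tumors. The filaments end on desmosomes, in which desmogleins and desmocollins span the gap between cells and plakoglobin, plakophilins and desmoplakin tie them to keratin. In the outermost cells, transglutaminases cross-link involucrin, loricrin, envoplakin, periplakin and small proline-rich proteins into the cornified envelope.

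Libraries held between 21773488 and 24589095 counts in control cells and between 22160298 and 24939948 with overexpression. P4HA3 had 86, 62 and 93 counts in the control libraries and 45042, 44775 and 49097 in the overexpression libraries, as the labels give it. The growth protocol in the labels describes uterine smooth muscle, and most of the defining markers of that tissue were near 0. DES and MYH11 had at most 9 counts in any library and CNN1 at most 1. ACTG2 had 0, 1 and 30 counts in control replicates 1, 2 and 3 and 40, 1 and 44 counts in overexpression replicates 1, 2 and 3, so 3 libraries from both groups held it and 3 did not. ACTA2, which other cells also make, was the largest of the 7 smooth muscle markers at 6.61 to 8.64 CPM, and their sum lay between 7.23 and 10.9 CPM. The 4 epithelial markers summed to between 2562 and 2894 CPM in control cells and between 2321 and 2619 CPM with overexpression. Nearly all of this sum lay on KRT8 (1639 to 1895 CPM) and KRT18 (659 to 997 CPM), which are among the keratins described below. EPCAM had only 4.98 to 6.13 CPM, and CDH1 had 16.2 to 16.6 CPM in control cells and 8.85 to 10.5 CPM with overexpression. The 5 fibroblast markers summed to between 166 and 176 CPM and between 132 and 167 CPM, the 3 endothelial markers to between 2.57 and 3.47 CPM and between 1.33 and 1.58 CPM, nearly all PECAM1, with CDH5 and VWF at no more than 2 counts, and the 4 leukocyte markers to at most 0.473 CPM. VIM, the intermediate filament gene of mesenchymal cells, lay between 27.3 and 35.7 CPM in all 6 libraries, above EPCAM and CDH1 in each. The part of these markers in the results below was not tested.

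Many genes of the squamous program were not detected in either group. Of the 45 genes, 9 had no count in any of the 6 libraries (KRT1, KRT23, DSC1, DSG1, IVL, SPRR1A, SPRR1B, SPRR3 and LORICRIN), and another 7 had no more than 3 counts in any library (KRT4, KRT13, KRT6B, DSC2, DSC3, DSG3 and FLG). At this depth a count of 0 allows up to between 0.12 and 0.138 CPM per library, taking 3 counts as the limit and covering counting error only. KRT5 had 3 or 4 counts in each library and TP63 between 3 and 13, and both fell under the filter on low counts. The other 27 genes were tested.

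Among those 27, KRT18, KRT6A, KRT17, PKP1, TGM2 and CASP14 fell and PKP4 rose with P4HA3 overexpression (edgeR quasi-likelihood test, adjusted p under 0.05 over 15130 genes). These 7 calls are 25.9% of the tested genes of the group, beside 20.8% of all genes tested, 9.36% called higher and 11.4% called lower. The filter decides which genes can be called, so the count describes the 27 and not the 45. At least 2-fold changes were seen for TGM2, CASP14 and KRT6A, all lower, beside 0.912% of all genes called and changed by that much and 0.681% called and lower by that much. CASP14, with 10, 7 and 8 counts in the overexpression libraries, passed the filter through the control libraries, where it was higher. Its fall is therefore no support for the direction of these calls. The 2 groups did not overlap for 13 of the 27 genes, 3 higher and 10 lower with overexpression, beside 40.1% of all genes tested, 19.7% higher and 20.4% lower. The median log2 fold change of the 27 genes was -0.12, and that of all genes tested was 0.01.

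**Figure D1:**
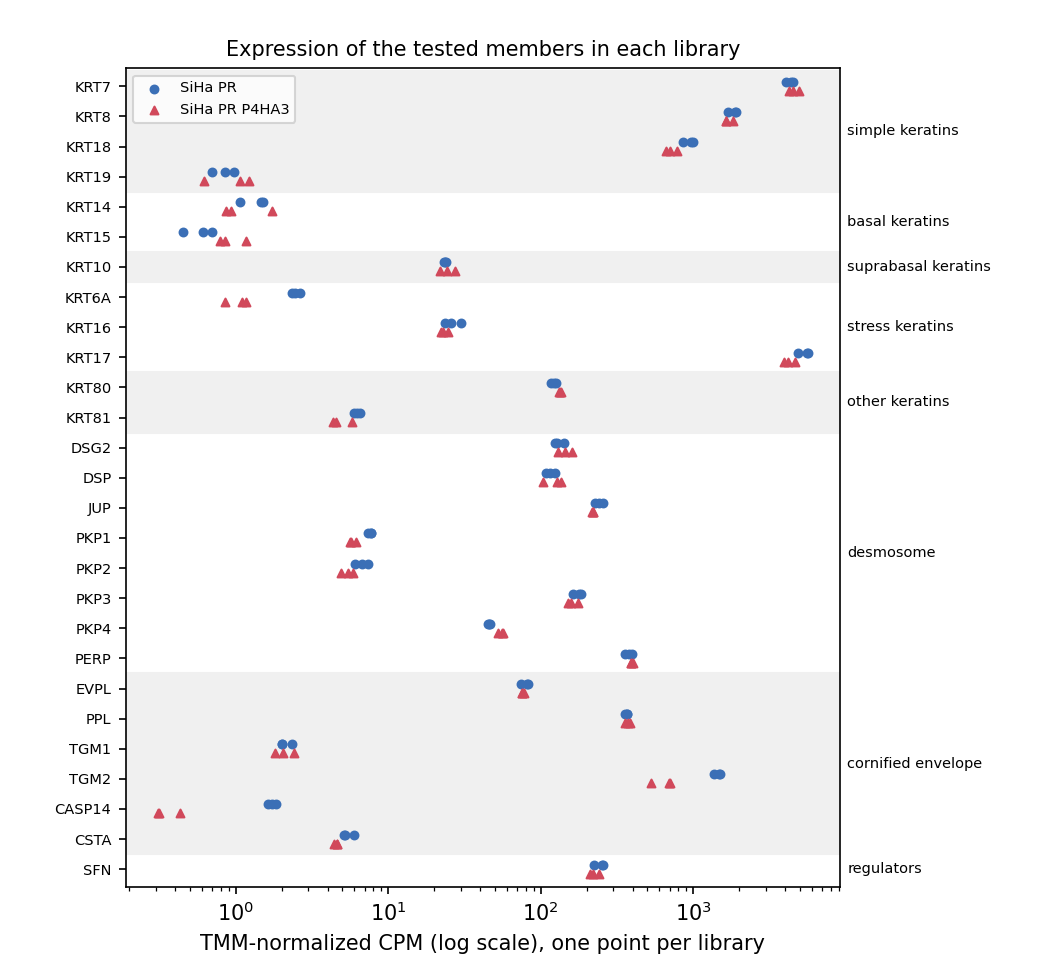
Expression of the 27 tested genes in each library, as CPM normalized by TMM on a log axis, with blue circles for the 3 SiHa PR libraries and red triangles for the 3 SiHa PR P4HA3 libraries. KRT17 and KRT7 are the most abundant in every library, and TGM2, CASP14 and KRT6A show the widest separation between the groups.

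The comparison between the groups also followed base composition. Over 15107 genes, Spearman's rho between the log2 fold change and the GC content of the transcript was -0.58. Libraries of the same group differed along GC content as well, with a rho between each library's deviation from its group mean and GC content from -0.52 to 0.45, and removal of the trend on GC content and transcript length brought the rho of the fold changes to -0.01. Keratin transcripts are rich in GC, with a median of 60.1% over the 12 tested keratins against 49.3% over all genes tested, and the 4114 tested genes between 55% and 65% GC had a median log2 fold change of -0.18. The trend and the groups cannot be told apart, so the value with the trend removed is given beside results that it changes. With the trend removed, 7 of the 27 genes were called higher and 6 lower, in place of 1 and 6, beside 9.3% and 9.26% of all genes, and the median of the 27 was 0.04.

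**Figure D2:**
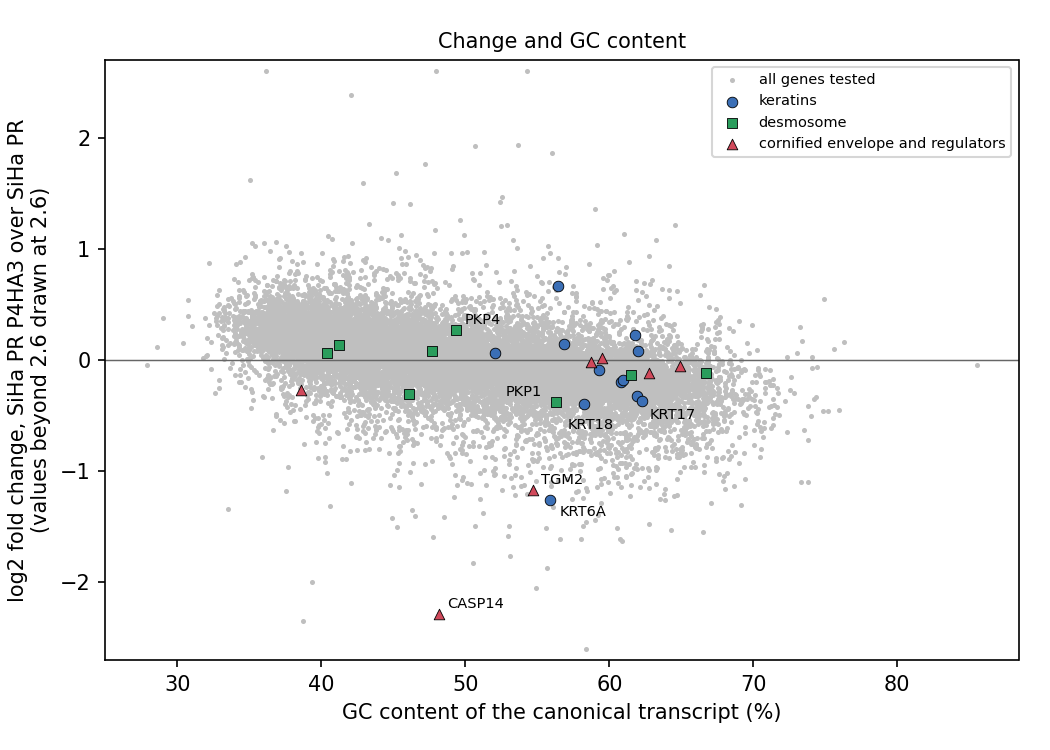
Log2 fold change with P4HA3 overexpression against the GC content of the transcript, with each gene tested in gray and the tested keratins, desmosome genes, and cornified envelope genes with SFN drawn on top. Fold changes decline from left to right, most keratins lie near 60% GC, and TGM2, KRT6A and CASP14 lie below most genes of similar GC content.

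Of the simple epithelial keratins, KRT7, KRT8 and KRT18 were among the most abundant of the 45 transcripts, and only KRT18 was called. KRT7, a type II keratin of glandular and transitional epithelia, had 4375, 4541 and 4071 CPM in control cells and 4979, 4530 and 4231 CPM with overexpression. The groups overlapped, and the difference did not pass the test (log2 fold change 0.08, edgeR adjusted p = 0.484). With the trend removed it was 0.32 and passed (edgeR adjusted p = 0.0022). KRT8, the type II partner of KRT18, had 1895, 1875 and 1682 CPM in control cells and 1825, 1646 and 1639 CPM with overexpression. Its groups overlapped too, and the log2 fold change was -0.09 (edgeR adjusted p = 0.369), with 0.10 and no call once the trend was removed.

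KRT18, at position 52948871 to 52952906 of chromosome 12 in GRCh38, fell. It had 971, 997 and 858 CPM in the 3 control libraries and 781, 659 and 709 CPM in the 3 overexpression libraries. Every overexpression library lay below every control library. The log2 fold change was -0.40 ± 0.08 (SE, n = 3 per group, edgeR adjusted p = 0.0108), or -0.21 with the trend removed (edgeR adjusted p = 0.0036). The call was lost without control replicate 1, control replicate 2 or overexpression replicate 3. KRT18 and KRT8 overlap on opposite strands over 525 exon bases, 12.3% of the 150-base windows of the KRT18 transcript occur in KRT8 transcripts, and the strand setting of the counting is not given in the sources used here, so reads of that stretch cannot be assigned to one or the other. Antisense RNAs overlap parts of other genes in the same way. Among them are 282 exon bases of KRT7 (KRT7-AS), 307 of KRT17 (an unnamed antisense RNA) and 418 of PKP4 (PKP4-AS1). In bulk RNA, fewer cells of a kind and less RNA per cell cannot be told apart for this or any value below. KRT19, the smallest type I keratin, was scarce, with 0.623 to 1.22 CPM and no call (log2 fold change 0.22, or 0.45 with the trend removed), and KRT23 had no count.

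Basal keratins were scarce. KRT14, the type I keratin of the basal layer, had 0.867 to 1.72 CPM, its partner KRT5 at most 4 counts, and KRT15, another basal type I keratin, 0.452 to 1.16 CPM. KRT15 was higher in each overexpression library than in any control library (0.452, 0.61 and 0.695 CPM against 1.16, 0.845 and 0.788 CPM), but the difference did not pass the test (log2 fold change 0.66 ± 0.27, edgeR adjusted p = 0.101). Of the suprabasal keratins, KRT10 was measured at 21.8 to 27.5 CPM with overlapping groups, while its partner KRT1 had no count and KRT4 and KRT13 had at most 1 count in any library.

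Stress keratins spanned a wide range of levels, and 2 of the 3 tested were called lower, beside 11.4% of all genes tested. With the trend removed, 1 of the 3 was called lower, beside 9.26% of all genes. KRT17, at position 41619442 to 41624842 of chromosome 17, was the most abundant keratin per kilobase of transcript in control cells. It had 5558, 5622 and 4835 CPM in control cells and 4678, 3936 and 4185 CPM with overexpression. The highest overexpression library lay just below the lowest control library. KRT17 fell with a log2 fold change of -0.32 ± 0.09 (SE, n = 3 per group, edgeR adjusted p = 0.031), and the call was lost with the trend removed (-0.09, edgeR adjusted p = 0.165) and without control replicate 1, control replicate 2 or overexpression replicate 3. KRT16, the type I partner of the KRT6 chains, had 25.8, 29.9 and 23.7 CPM in control cells and 24.7, 22.1 and 23.0 CPM with overexpression. Its groups overlapped, and it was not called (log2 fold change -0.18, edgeR adjusted p = 0.181), with 0.04 and no call once the trend was removed.

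KRT6A, at position 52487176 to 52493257 of chromosome 12, was far below both, and it showed the largest fall of any keratin tested. It had 60, 50 and 65 counts (2.46, 2.35 and 2.66 CPM) in control cells and 27, 19 and 28 counts (1.16, 0.845 and 1.1 CPM) with overexpression. Each overexpression library held about the same low level, and none reached the control range. The log2 fold change was -1.26 ± 0.18 (SE, n = 3 per group, edgeR adjusted p = 0.0023), or 2.39-fold lower in the fit, and it was called whichever of the 6 libraries was left out and with the trend removed (-1.13). KRT6A shares 9.26% of its 150-base windows with near-identical copies, most of them with KRT6C, which had no count, while KRT6B had at most 1 count in any library.

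Among other keratins, KRT80, a type II keratin of many epithelia, had 127, 121 and 116 CPM in control cells and 137, 134 and 132 CPM with overexpression. It was higher in each overexpression library, by a log2 fold change of 0.15 that did not pass the test (edgeR adjusted p = 0.078) and of 0.27 that passed with the trend removed (edgeR adjusted p = 0.0011). KRT81, a type II hair keratin, had 6.24, 6.01 and 6.54 CPM in control cells and 5.75, 4.31 and 4.53 CPM with overexpression (log2 fold change -0.36, edgeR adjusted p = 0.069). Its groups did not overlap, and with the trend removed the value was -0.14. KRT81 shares 25.6% of its 150-base windows with KRT86, so the 2 genes are uncertain together, and KRT86 was not called either (log2 fold change -0.71, edgeR adjusted p = 0.079).

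Keratins of both types together took 1.29%, 1.29% and 1.18% of the counts of the control libraries and 1.22%, 1.11% and 1.11% of those of the overexpression libraries. The ranges overlapped, and 98.3% to 98.6% of these counts lay on KRT7, KRT8, KRT17 and KRT18. Counts on the 150 keratin pseudogenes of the table came to no more than 0.193% of the keratin counts. The balance of the 2 types differed more than their sum. Summed CPM per kilobase of type I keratins was 1.15, 1.14 and 1.10 times that of type II keratins in the control libraries and 0.889, 0.824 and 0.923 times in the overexpression libraries. Type I was thus above type II in each control library and below it in each overexpression library. Within the abundant chains, the ratio of KRT17 to KRT7 per kilobase was 1.36, 1.33 and 1.27 in control cells and 1.006, 0.931 and 1.06 with overexpression, and that of KRT18 to KRT8 was 0.647, 0.672 and 0.644 and 0.54, 0.505 and 0.546. These ratios were chosen after the values were seen and are given without a test. In the deposited counts KRT17 and KRT18 were lower and KRT7 and KRT8 were not called, whereas with the trend removed KRT7 was called higher and KRT18 lower, and KRT8 and KRT17 were not called. The log2 fold change of KRT17 minus that of KRT7 was -0.40 without and -0.41 with removal of the trend. For KRT18 minus KRT8 these differences were -0.30 and -0.32. The genes of each pair are close in GC content (61.9% and 62.0%, 58.2% and 59.3%). The removal therefore shifts both genes of a pair nearly alike, and these differences could hardly change. The part of base composition in them was not tested.

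**Figure D3:**
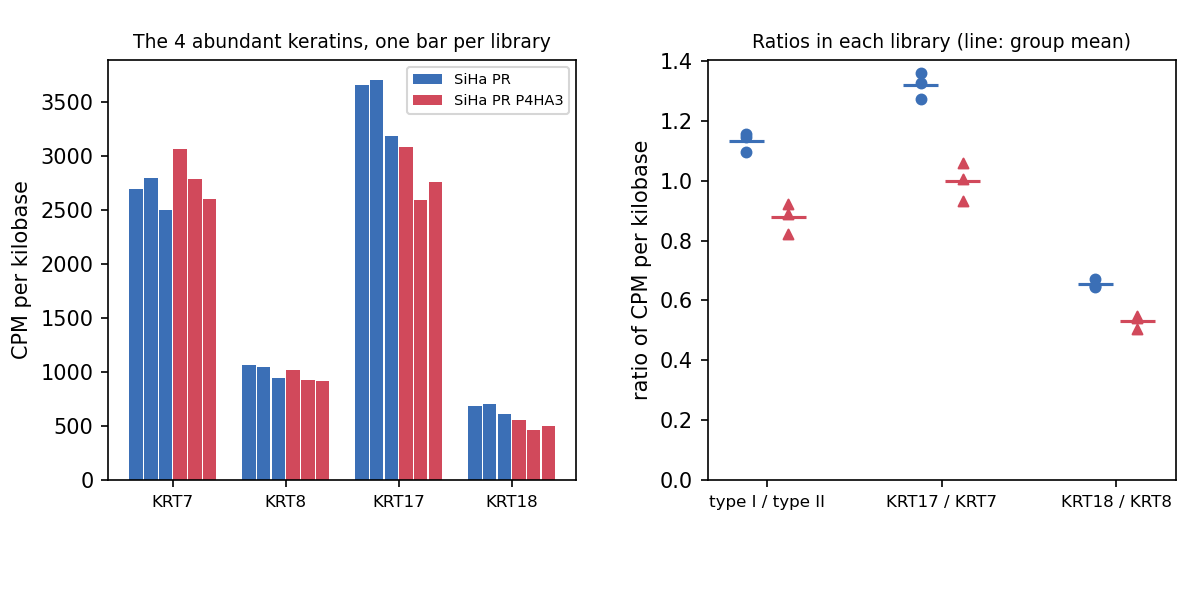
Left, CPM per kilobase of the 4 abundant keratins with a bar for each library (blue, SiHa PR; red, SiHa PR P4HA3). Right, the ratio of summed type I to type II keratins, of KRT17 to KRT7 and of KRT18 to KRT8 in each library, with a line at the group mean; each ratio is lower in all 3 overexpression libraries than in any control library, with type I over type II between 1.10 and 1.15 against 0.824 to 0.923.

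Desmosomes were represented by a narrow set of genes. Of the surface proteins of desmosomes, DSG2, the desmoglein of simple epithelia, and PERP, which is needed for desmosome assembly in stratified epithelium, were abundant. The other desmosomal cadherins, DSG1, DSG3, DSC1, DSC2 and DSC3, had at most 3 counts in any library. DSG2 was thus detected without any of the desmocollin transcripts above that level. DSG2 had 127, 124 and 143 CPM in control cells and 129, 160 and 144 CPM with overexpression. PERP had 382, 359 and 395 CPM and 402, 390.9 and 391.7 CPM. Groups overlapped for both genes and neither was called (log2 fold changes 0.13 and 0.06, edgeR adjusted p = 0.254 and 0.45), and with the trend removed the values were -0.06 and -0.12, again without a call.

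The plaque proteins that anchor keratin were all measured. DSP, desmoplakin, had 109, 115 and 123 CPM in control cells and 103.7, 135 and 129 CPM with overexpression (log2 fold change 0.08, or -0.03 with the trend removed, edgeR adjusted p = 0.542 and 0.751), with overlapping groups. JUP, plakoglobin, had 240, 255 and 229 CPM and 219, 216 and 222 CPM. All 3 overexpression libraries were lower in JUP, by a log2 fold change of -0.14 that did not pass the test (edgeR adjusted p = 0.102) and that was 0.06 with the trend removed. PKP3, the plakophilin of most stratified and simple epithelia, had 179, 183 and 162 CPM and 175, 151 and 157 CPM, with overlapping groups, a log2 fold change of -0.12 (edgeR adjusted p = 0.251) and, with the trend removed, one of 0.16 that passed (edgeR adjusted p = 0.0129).

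PKP1 and PKP4 were called in opposite directions. PKP1, the plakophilin of suprabasal squamous cells that reinforces their desmosomes, lies at position 201283452 to 201332993 of chromosome 1. It had 7.72, 7.74 and 7.36 CPM in control cells and 5.58, 5.74 and 6.19 CPM with overexpression. The 3 overexpression libraries lay together below the 3 control libraries. PKP1 fell by 0.38 ± 0.10 on the log2 scale (SE, n = 3 per group, edgeR adjusted p = 0.0267), a call near the threshold that was lost with the trend removed (-0.29, edgeR adjusted p = 0.0501), under DESeq2 (adjusted p = 0.0763) and when any of 4 of the 6 libraries was left out (control replicates 1 and 2, overexpression replicates 2 and 3). PKP4, an armadillo protein found at both adherens junctions and desmosomes, lies at position 158456952 to 158682879 of chromosome 2. It had 45.5, 45.2 and 46.6 CPM in control cells and 52.7, 56.6 and 55.9 CPM with overexpression. Control libraries were nearly identical, and each overexpression library was higher. PKP4 rose by a log2 fold change of 0.27 ± 0.06 (SE, n = 3 per group, edgeR adjusted p = 0.0155) and by 0.25 with the trend removed (edgeR adjusted p = 0.0034), and the call was lost without control replicate 1, control replicate 2 or overexpression replicate 3. PKP2, the plakophilin of simple epithelium and heart, had 6.69, 6.05 and 7.36 CPM and 5.45, 4.94 and 5.83 CPM, without overlap. It was not called (log2 fold change -0.31, edgeR adjusted p = 0.085) but was called with the trend removed (-0.38, edgeR adjusted p = 0.0298).

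**Figure D4:**
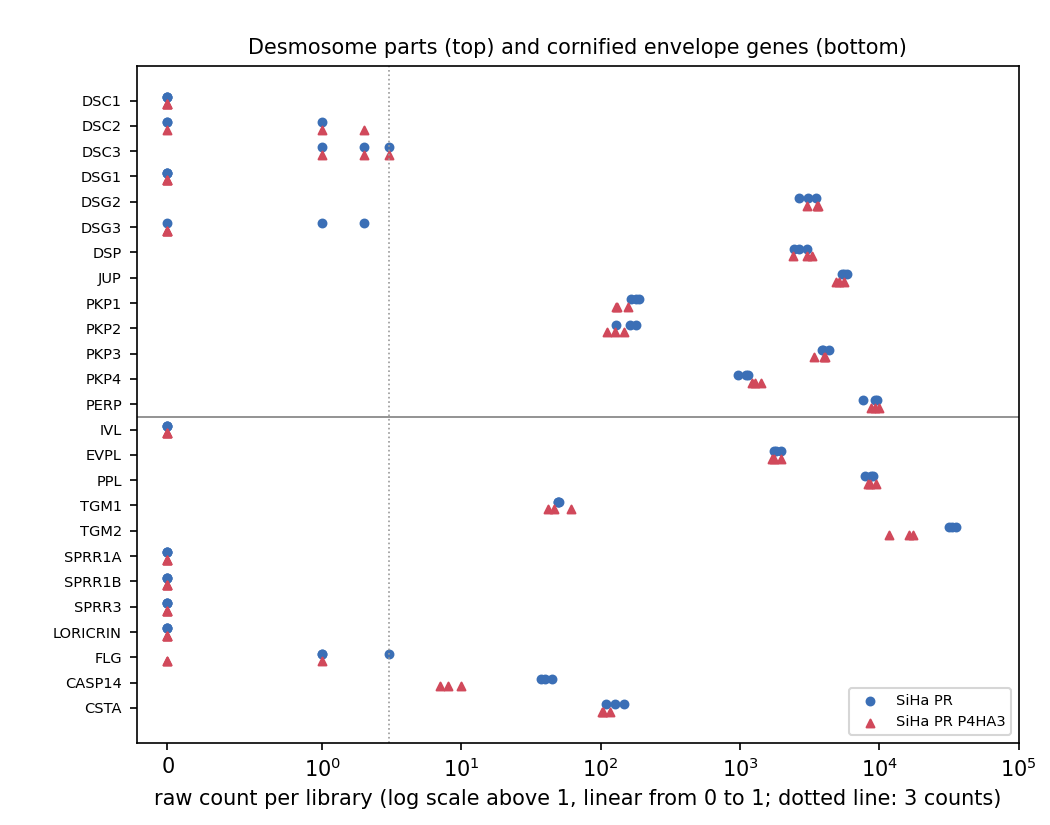
Raw counts per library of the 13 desmosome genes (top) and the 12 cornified envelope genes (bottom) on an axis that is logarithmic above 1 count, with blue circles for SiHa PR, red triangles for SiHa PR P4HA3 and a dotted line at 3 counts. DSG1, DSG3 and the 3 desmocollins, like IVL, LORICRIN, FLG and the small proline-rich genes, stay at or left of the line in all 6 libraries, and TGM2 and CASP14 separate by group.

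The promoters of both called plakophilins are shown because the genes were called in opposite directions, PKP1 near the threshold. The part of these promoters in the changes was not tested. Each runs from 250 bases before to 50 bases after the transcription start, on the plus strand of GRCh38.p14 as RefSeq gives it, at chr1:201283256-201283555 for PKP1 and at chr2:158456702-158457001 for PKP4, which has a second start in the table. Capitals mark GGGCGG, the core of the GC box.
PKP1: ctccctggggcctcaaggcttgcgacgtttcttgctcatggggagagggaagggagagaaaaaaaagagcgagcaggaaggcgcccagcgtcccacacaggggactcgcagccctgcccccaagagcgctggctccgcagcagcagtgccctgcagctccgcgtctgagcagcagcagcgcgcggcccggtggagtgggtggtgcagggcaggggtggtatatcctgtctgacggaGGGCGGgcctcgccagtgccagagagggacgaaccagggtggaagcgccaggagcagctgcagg
PKP4: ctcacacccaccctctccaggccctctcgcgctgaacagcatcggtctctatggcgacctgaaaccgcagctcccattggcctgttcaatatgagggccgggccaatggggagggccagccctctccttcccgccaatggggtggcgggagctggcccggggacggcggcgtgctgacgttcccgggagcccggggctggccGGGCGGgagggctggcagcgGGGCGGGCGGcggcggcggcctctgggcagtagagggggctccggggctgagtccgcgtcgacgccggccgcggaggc
The PKP1 window holds 1 GC box and the PKP4 window 3, of which 2 overlap. Searched on both strands, GGGCGG occurs in 45% of all 35116 promoters of the table and in 8 of the 24 genes described here that have an entry.

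Of the 6 cornified envelope genes tested, TGM2 and CASP14 fell and none rose, beside 11.4% of all genes called lower and 9.36% called higher. With the trend removed, 3 were called lower and 2 higher, beside 9.26% and 9.3% of all genes. Both counts of falls include CASP14, which passed the filter through the control libraries. These counts are therefore no support for a direction. TGM2, the widely expressed tissue transglutaminase, which also cross-links matrix proteins, was the most abundant envelope gene, and lies at position 38127385 to 38166578 of chromosome 20. It had 1473, 1490 and 1372 CPM in control cells and 705, 526 and 692 CPM with overexpression. Each overexpression library held less than the lowest control library by a wide margin. TGM2 fell with a log2 fold change of -1.17 ± 0.10 (SE, n = 3 per group, edgeR adjusted p = 0.00034), or 2.25-fold lower in the fit, and it was called in each of the alternative settings and whichever library was left out, with log2 fold changes from -1.25 to -1.05 when a library was left out. Exons of RPRD1B on the opposite strand overlap 396 exon bases of TGM2, and RPRD1B was not called (log2 fold change 0.11, edgeR adjusted p = 0.194).

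CASP14, a caspase of the outer epidermis that takes part in the breakdown of filaggrin, lies at position 15049480 to 15058293 of chromosome 19. It had 45, 37 and 40 counts (1.85, 1.74 and 1.63 CPM) in control cells and 10, 7 and 8 counts (0.429, 0.311 and 0.315 CPM) with overexpression. The groups were well apart, but the level in overexpressing cells rests on few counts. The gene passed the filter on low counts through the control libraries, where it was higher. CASP14 fell with a log2 fold change of -2.29 ± 0.23 (SE, n = 3 per group, edgeR adjusted p = 0.00057), or 4.89-fold lower in the fit, and the fall was called whichever library was left out and with the trend removed (-2.31). DESeq2 gave it no adjusted p. Its substrate gene FLG had at most 3 counts in any library.

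The plakin proteins of the envelope were not called in the deposited counts. PPL, periplakin, had 369, 369 and 357 CPM in control cells and 354, 384 and 373 CPM with overexpression (log2 fold change 0.02, edgeR adjusted p = 0.798). EVPL, envoplakin, its partner, had 81.0, 82.7 and 74.5 CPM and 75.7, 75.2 and 77.8 CPM (log2 fold change -0.06, edgeR adjusted p = 0.505). Groups overlapped for both, and with the trend removed both were called higher, with log2 fold changes of 0.16 and 0.15. TGM1, the membrane-bound transglutaminase of keratinocytes, was measured at 1.8 to 2.4 CPM with a log2 fold change of -0.02 (edgeR adjusted p = 0.968). CSTA, a cysteine protease inhibitor that is an envelope precursor, had 5.22, 5.16 and 6.01 CPM and 4.38, 4.63 and 4.61 CPM, without overlap, and was not called (log2 fold change -0.27, edgeR adjusted p = 0.115) except with the trend removed (-0.43, edgeR adjusted p = 0.0155).

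The promoters of CASP14, which was measured, and of IVL, which was not detected in any library, are shown because both belong to the envelope genes and hold the same motif. They lie on the plus strand at chr19:15049230-15049529 and chr1:152908296-152908595 of GRCh38.p14 as RefSeq gives them. Capitals mark TGANTCA, the binding motif of AP-1 factors, and in IVL also TATAAA, the TATA box.
CASP14: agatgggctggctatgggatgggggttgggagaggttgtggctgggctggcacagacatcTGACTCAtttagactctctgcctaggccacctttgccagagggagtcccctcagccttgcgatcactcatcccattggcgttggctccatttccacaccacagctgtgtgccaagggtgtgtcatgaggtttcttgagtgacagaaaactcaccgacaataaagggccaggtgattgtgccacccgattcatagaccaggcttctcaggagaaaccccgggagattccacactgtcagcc
IVL: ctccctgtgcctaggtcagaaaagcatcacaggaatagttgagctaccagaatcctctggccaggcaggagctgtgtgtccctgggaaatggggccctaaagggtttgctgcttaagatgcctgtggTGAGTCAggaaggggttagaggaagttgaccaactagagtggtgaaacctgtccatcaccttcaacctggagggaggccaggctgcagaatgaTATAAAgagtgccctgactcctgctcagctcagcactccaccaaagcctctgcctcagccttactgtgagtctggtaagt
The AP-1 motif begins at position -190 from the start in CASP14 and at -123 in IVL. It was found in all 7 of the envelope genes with an entry (CASP14, IVL, FLG, LORICRIN, SPRR1A, SPRR1B and SPRR3) and in SFN and PERP, 9 of 24 genes or 37.5%, against 7.71% of all promoters, and TATAAA was found in 6 of 24 genes against 11.5% of all promoters. The motif stood in 6 envelope genes with at most 3 counts, which lie in 1 cluster of related genes on chromosome 1, as well as in CASP14. The other tested envelope genes, TGM1, TGM2, EVPL, PPL and CSTA, had no entry and were not searched. The share of the genes counts a gene with a match at any of its starts, whereas the share of all promoters counts each start. A match is a string of letters and not a measured site.

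Of the regulators, SFN, stratifin, an adaptor protein of keratinocytes induced by DNA damage, had 251, 257 and 223 CPM in control cells and 241, 210 and 222 CPM with overexpression. The groups overlapped and it was not called (log2 fold change -0.12, edgeR adjusted p = 0.245), whereas with the trend removed it was called higher (0.13, edgeR adjusted p = 0.0238). TP63, the transcription factor that maintains basal squamous cells, had 13, 5 and 10 counts in control cells and 3, 9 and 10 counts with overexpression, too few for a test.

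**Figure D5:**
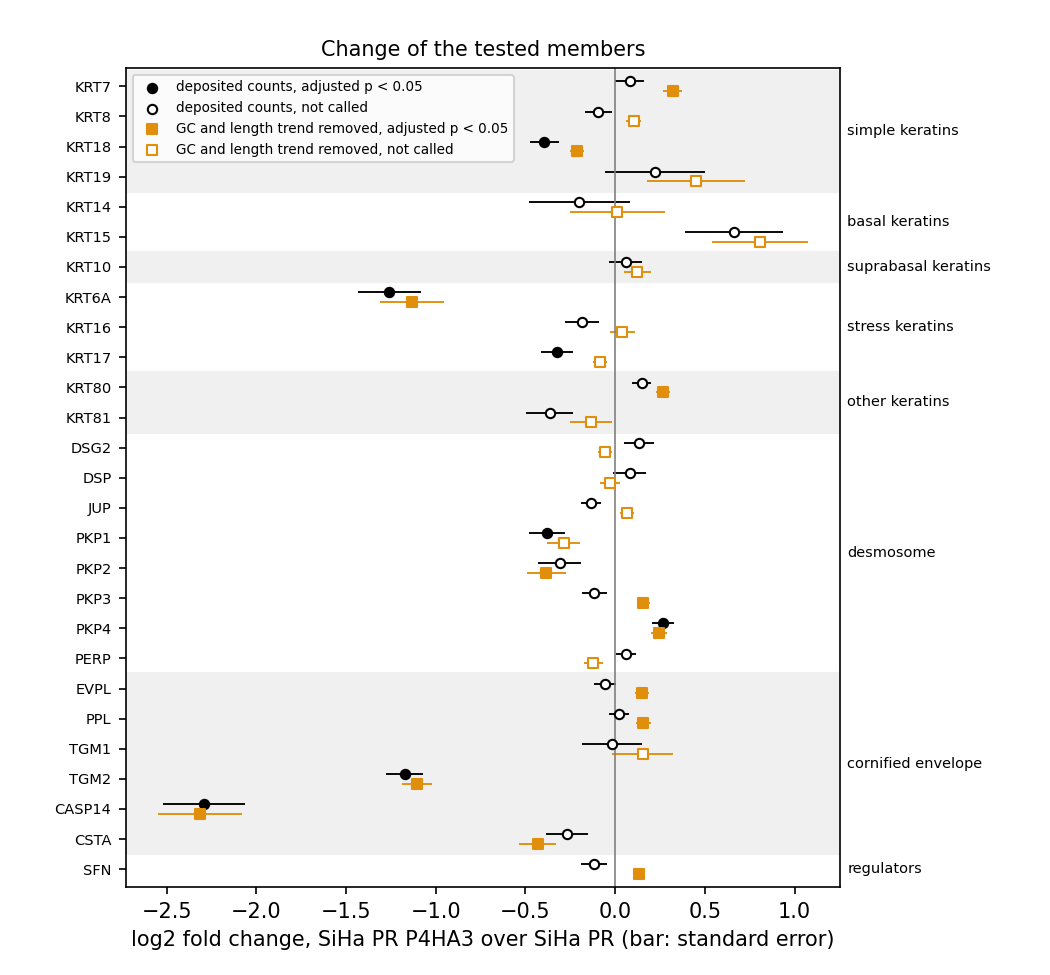
Log2 fold change with P4HA3 overexpression of the 27 tested genes, with bars of 1 standard error, from the deposited counts (black circles) and with the trend on GC content and transcript length removed (orange squares); filled symbols have an adjusted p under 0.05. TGM2, CASP14 and KRT6A lie below -1 in both, and KRT18 is filled on the lower side in both and PKP4 on the higher side in both. KRT7, KRT80, PKP3, EVPL, PPL and SFN are filled on the higher side only with the trend removed. On the lower side, PKP2 and CSTA are filled only with the trend removed, and KRT17 and PKP1 only in the deposited counts.

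By role, the median log2 fold change of the tested genes was -0.01 for 4 simple keratins, 0.23 for 2 basal keratins, -0.32 for 3 stress keratins, -0.03 for 8 desmosome genes and -0.16 for 6 cornified envelope genes, beside 0.01 for all genes tested. With the trend removed these medians were 0.21, 0.41, -0.09, -0.04 and -0.14. Each median rests on few genes, and that of the cornified envelope includes CASP14, which passed the filter through the control libraries. Within the cornified envelope, TGM2 and CASP14 lay below -1 with the trend removed, and the other 4 tested genes lay between -0.43 and 0.16.

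Genes of the same structures outside the 45 were taken from 4 lists of 115 genes, of which 37 were tested, 5 rose and 5 fell, beside 9.36% of all genes called higher and 11.4% called lower. With the trend removed, 7 of the 37 were called higher and 5 lower, beside 9.3% and 9.26% of all genes. At adherens junctions and hemidesmosomes, which hold cells to each other and to the basement membrane, 11 of 12 genes were tested and 3 fell. CDH1, E-cadherin, had 16.6, 16.5 and 16.2 CPM in control cells and 8.85, 9.65 and 10.5 CPM with overexpression (log2 fold change -0.77 ± 0.09, edgeR adjusted p = 0.0011). CDH3, P-cadherin, had 18.5, 16.6 and 14.3 CPM and 8.03, 7.83 and 7.85 CPM (log2 fold change -1.06 ± 0.11, edgeR adjusted p = 0.00061). ITGB4, the integrin subunit of hemidesmosomes, had 20, 22.2 and 19.7 CPM and 13.1, 12.3 and 14.3 CPM (log2 fold change -0.64 ± 0.09, edgeR adjusted p = 0.0025). The groups did not overlap for any of the 3, beside 20.4% of all genes tested that did not overlap and were lower. These 3 were named because they were called, so the lack of overlap adds no support. Each was called with the trend removed and whichever library was left out. The catenins that these cadherins bind, CTNNA1, CTNNB1 and CTNND1, were not called (log2 fold changes 0.09, 0.15 and 0.15). With the trend removed, 2 genes of the list were called higher, PLEC, plectin, a linker of keratin to hemidesmosomes (log2 fold change 0.28, edgeR adjusted p = 0.00076, against 0.10 without a call), and CD151, a tetraspanin that binds laminin-binding integrins (0.14, edgeR adjusted p = 0.0239, against -0.09 without a call).

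Of 37 further keratins, 23 had no count and 2 were tested. KRT34, a type I hair keratin, rose from 2.63, 2.44 and 3.6 CPM to 4.81, 4.71 and 4.65 CPM (log2 fold change 0.70 ± 0.15, edgeR adjusted p = 0.0141). Each overexpression library was above the control range. The call was lost without control replicate 1, control replicate 2 or overexpression replicate 3.

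Of 43 further cornification genes, 26 had no count and 8 were tested. Of the 8, 1 rose and 1 fell, beside 9.36% of all genes called higher and 11.4% called lower. Neither was called with the trend removed. EMP1, a membrane protein of squamous epithelium, rose from 272 ± 3.12 to 317 ± 9.59 CPM (SD, n = 3), and LYPD3, a surface protein of suprabasal keratinocytes, fell from 4.79 ± 0.578 to 3.39 ± 0.313 CPM (SD, n = 3). The call of EMP1 (edgeR adjusted p = 0.0171) was lost without control replicate 1, control replicate 2 or overexpression replicate 3, and that of LYPD3 (edgeR adjusted p = 0.0302) when any library but overexpression replicate 1 was left out and under DESeq2 (adjusted p = 0.07). Of 23 squamous transcription regulators, 16 were tested, 3 rose and 1 fell, beside the same shares of all genes. Once the trend was removed, 4 were called higher and 2 lower, beside 9.3% and 9.26% of all genes. TFAP2C, an AP-2 family factor of surface ectoderm, rose from 55.8 ± 1.32 to 69.4 ± 1.87 CPM (SD, n = 3) and was called whichever library was left out. PRDM1, a repressor active in terminally differentiating cells, rose from 11.9 ± 1.15 to 15.6 ± 1.62 CPM, and KLF4, a factor of barrier formation, from 24.4 ± 1.82 to 28.9 ± 0.332 CPM (SD, n = 3). Both calls (edgeR adjusted p = 0.0313 and 0.0498) were lost without control replicate 1, control replicate 2, overexpression replicate 2 or overexpression replicate 3, and KLF4 was not called under DESeq2 (adjusted p = 0.0629). PITX1, a homeobox factor, fell from 212 ± 17.2 to 170.1 ± 17.6 CPM (SD, n = 3, edgeR adjusted p = 0.0264), was lost without control replicate 1, control replicate 2 or overexpression replicate 3, and was not called with the trend removed (log2 fold change -0.02, edgeR adjusted p = 0.797).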

How the data were processed

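Poly-A RNA was made into strand-specific libraries by the dUTP method and sequenced on a DNBSEQ-T7. The supplementary methods name STAR for alignment to GRCh38 and HTSeq for counting, whereas the submitters' processing notes name HISAT2. The strand setting of the counting and tool versions are not given in the sources used here. The values deposited by the authors are raw counts per gene for 60664 Ensembl genes in 6 libraries, without normalization.

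From these counts, edgeR 4.0.16 (R 4.3.3) was used with TMM normalization, filterByExpr at a minimum count of 10, the quasi-likelihood test (two-sided) and Benjamini-Hochberg adjustment over 15130 genes. A gene was called at an adjusted p under 0.05. CPM are TMM-normalized. Standard errors are the log2 fold change divided by the root of the F statistic. The common biological coefficient of variation was 7.66%, so genes near 1 CPM, with about 20 counts per library, are limited by counting. Depth was 21773488 to 24939948 counts. No library repeated another of its group: the chi-square between their counts, over its degrees of freedom, ran from 5.17 to 17.8. Symbols, positions, GC content and transcript length came from GENCODE v44, which held 60463 of the 60664 identifiers. The removal of trends fitted how far each library departed from the average library with smooth functions of GC content and of log2 transcript length (mgcv 1.9.3) and used the fit as an offset. It removes any difference between the groups that follows either, technical or not. Windows of 150 bases were compared with all transcripts on both strands. The scripts were tested on simulated data.

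The 45 genes, the other gene lists and the alternatives were chosen with earlier results of these data known. Genes were given per library if called or at a mean of at least 50 CPM, with partners and near-identical copies, and up to 4 called genes at 1 CPM or more from each other list. The keratin ratios and the values of KRT15, KRT81, PKP2, CSTA, TP63, the catenins, PLEC, CD151 and RPRD1B were chosen after the data had been seen. Alternatives were DESeq2 1.42.0, limma-voom (limma 3.58.1), RLE, upper-quartile and library-size normalization, 2 other filters, the replicate number as a block, removal of the trend, each library left out and an adjusted p under 0.01. The authors' own FPKM values and gene lists were not used here.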

Additional observations from a re-analysis of the deposited data

How the results depend on the processing

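Of 428 values of single genes of the 45 under the alternatives, 367 kept their direction and side of the threshold, 16 newly passed, 18 no longer passed and 27 changed sign. KRT6A, TGM2 and CASP14 passed in each setting that gave them an adjusted p. Genes of the 45 called higher numbered 2 by library sizes, 7 with the trend on GC content and length removed, 8 with that and the replicate block, and 0 at an adjusted p under 0.01, where 3 were called lower. Over all genes, 2384 were called higher without a filter, 2138 with the replicate block and 221 at 0.01, where 507 were called lower. In the 4 other lists, 8 were called higher with the block and trend removal and 1 at 0.01, and 8 were called lower without a filter, 9 with the block and 3 at 0.01. With 1 library left out, calls ran from 163 to 2814 higher and 371 to 2716 lower over all genes, 0 to 3 and 3 to 8 over the 45, and 1 to 7 and 3 to 8 in the other lists. Over the 45, the calls fell to 0 higher and 3 lower without control replicate 1, control replicate 2 or overexpression replicate 3. The cause was not tested.

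Signs that changed belonged to genes that were not called in the deposited counts. With the trend removed, and with the block beside it, the log2 fold changes were 0.10 and 0.10 for KRT8, 0.012 and 0.0095 for KRT14, 0.041 and 0.044 for KRT16, -0.057 and -0.057 for DSG2, -0.028 and -0.031 for DSP, 0.064 and 0.064 for JUP, 0.16 and 0.16 for PKP3, -0.12 and -0.12 for PERP, 0.15 and 0.15 for EVPL, 0.15 and 0.15 for TGM1 and 0.13 and 0.13 for SFN. TGM1 was at 0.00085 by library sizes. With 1 library left out, KRT10 ran from -0.029 to 0.14, PPL from -0.0061 to 0.053, TGM1 from -0.13 to 0.080 and the median of the basal keratins from -0.049 to 0.38. The same removal, without and with the block, moved the medians to 0.21 and 0.21 for simple keratins, -0.086 and -0.085 for stress keratins, 0.066 and 0.065 for other keratins and 0.13 and 0.13 for the regulators, and that of the cornified envelope was -0.059 with at least 10 counts in every library, a filter that CASP14 does not pass.

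The sources do not say whether replicate numbers pair the samples. Correlations between same-numbered deviations were 0.24, -0.04 and 0.03, and not every sample was closest to its own number. These correlations cannot exclude a pairing, because the deviations within a group also followed GC content. The replicate block therefore has no stated basis in the labels. Genes with a mean under about 1 CPM rest on few counts, among them KRT15, KRT19 and TP63, with at most 27, 31 and 13 counts in any library.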
